A study of Mus musculus with 16 samples.

Results

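The genes described here are 5 Schlafen genes (Slfn1, Slfn2, Slfn4, Slfn5 and Slfn8) and 5 Ms4a genes (Ms4a4b, Ms4a4c, Ms4a6b, Ms4a6d and Ms4a7), 10 of the 18193 genes measured in crushed mouse sciatic nerve. They were named with results of these same arrays in view, and count as chosen by the WldS day 3 minus day 0 differences, where Slfn4 and Ms4a4c had the greatest increases. Each gene is represented by the probe set that carries its symbol alone and has the highest mean over the 16 arrays. All 10 passed the filter on dim signals, a log2 value of 5.37, and were tested among 14545 genes.

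RNA came from the sciatic nerve below a crush in adult mice of C57BL/6 OlaHsd-Wlds, called WldS here, and of C57BL/6. WldS mice carry a fusion gene with the whole Nmnat1 coding sequence, and their severed axons degenerate slowly. There were 8 groups of 2 arrays. WldS nerves and C57BL/6 nerves were each taken uninjured (day 0) and 3, 7 and 14 days after a microcrush of the left nerve at mid-thigh. Mice were 8 to 12 weeks old, 56 of each strain, and no group received another agent. The tissue was a segment 4 mm long that began 1 mm and ended 5 mm beyond the lesion, and the stumps of a group were pooled for RNA. The labels call the 2 arrays of a group biological replicates. They are treated as separate pools (n = 2), but the mice per pool are not stated, so p-values measure the spread between these pools, which may be partly technical.

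Schlafen genes lie in a cluster on mouse chromosome 11. Many are switched on by type I interferon, and the family is known for holding back the growth of lymphoid and myeloid cells. The short forms Slfn1 and Slfn2 lack the helicase-like region of the long forms Slfn5 and Slfn8, and Slfn4 is of intermediate length. Ms4a genes on chromosome 19 encode membrane proteins related to the B cell antigen CD20 (Ms4a1), and several are used as markers of T cells, monocytes or macrophages. Injured nerve fills with monocytes and macrophages from the blood, which remove myelin and axon debris.

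In the reference gene order the Schlafen genes run Slfn5, Slfn9, Slfn8, Slfn10-ps, Slfn2, Slfn1, Slfn4 and Slfn3, and the Ms4a members run Ms4a7, Ms4a4c, Ms4a4b, Ms4a6b and Ms4a6d, with other genes between them. RefSeq promoter windows (250 bases before to 50 after the start, build GRCm38.p6) were found for 9 of the 10 members, 11 windows in all, with none for Ms4a6d. The motif GAAANNGAAA, the core of an interferon-stimulated response element, was searched on both strands. It occurred in Slfn5 and in both Slfn8 windows and in 3.44% of all 32851 windows. Counted from the start site, the sense match of Slfn5 began at -155 and the antisense match of Slfn8 at -48. These stretches are shown because they hold the match. Slfn1, Slfn2 and Slfn4 had none in their windows. The match is in capitals, and the stretches lie at chr11:82951897-82952006 (plus strand) and chr11:83020799-83020908 (minus strand).
Slfn5: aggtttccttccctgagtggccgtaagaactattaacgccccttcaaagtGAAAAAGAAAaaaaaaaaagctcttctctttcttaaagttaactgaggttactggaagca
Slfn8: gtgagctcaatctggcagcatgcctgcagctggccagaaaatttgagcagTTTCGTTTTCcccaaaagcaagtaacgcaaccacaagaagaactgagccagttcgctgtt

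Slfn1, Slfn2 and Slfn4, which lie near each other, shared the run ACTTCCTGGAG. It was found after looking at these windows, and it occurred in 24 of 32851 windows (0.0731%), either strand counted. The run began at -74, -55 and -73 from the start site in Slfn1, Slfn2 and Slfn4. It is in capitals below, at chr11:83116696-83116806, chr11:83065007-83065117 and chr11:83175063-83175173, all on the plus strand.
Slfn1: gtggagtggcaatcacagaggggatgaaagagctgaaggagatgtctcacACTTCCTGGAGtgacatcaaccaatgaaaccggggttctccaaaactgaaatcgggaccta
Slfn2: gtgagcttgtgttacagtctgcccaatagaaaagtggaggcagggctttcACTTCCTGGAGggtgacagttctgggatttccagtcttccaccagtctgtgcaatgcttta
Slfn4: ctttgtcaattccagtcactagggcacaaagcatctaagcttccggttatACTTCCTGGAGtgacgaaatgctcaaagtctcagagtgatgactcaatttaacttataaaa

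Ms4a4b and Ms4a4c also had closely alike start regions. They shared 2 runs of 20 bases, also found after looking, and no other window of the 32851 held either run. Both runs are in capitals below, at chr19:11443467-11443583 and chr19:11407573-11407686 on the plus strand. The motif GAGGAA, bound by the myeloid factor PU.1, occurred in Ms4a4b, Ms4a4c and Ms4a7 among the members and in 28.3% of all windows. A match is a description of the letters and shows no binding.
Ms4a4b: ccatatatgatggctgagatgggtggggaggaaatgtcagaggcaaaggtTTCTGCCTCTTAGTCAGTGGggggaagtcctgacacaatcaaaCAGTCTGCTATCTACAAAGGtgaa
Ms4a4c: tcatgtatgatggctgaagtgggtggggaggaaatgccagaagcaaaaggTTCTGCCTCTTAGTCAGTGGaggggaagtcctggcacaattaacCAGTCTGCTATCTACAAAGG

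Nmnat1, which the WldS fusion gene carries, checked the strain labels. It averaged 8.62 to 9.19 over the WldS groups, against 5.46 to 6.17 over the C57BL/6 groups (log2 signal), with a difference of 2.69 to 3.40 at the 4 time points. Schwann cell markers were bright at day 0, with a mean log2 signal of 12.3 and 12.5 over 6 markers in the WldS arrays and of 12.5 and 12.4 in the C57BL/6 arrays. The 3'/5' index, a log2 measure of RNA degradation from control probe sets, reached 3.81 in the first uninjured WldS pool and 3.23 in the second WldS pool of day 14, and lay between 1.63 and 2.46 elsewhere. Array data carry no read depth, and the number of arrays limits the precision. In a bulk sample more cells of a type and more RNA per cell cannot be told apart.

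**Figure D1:**
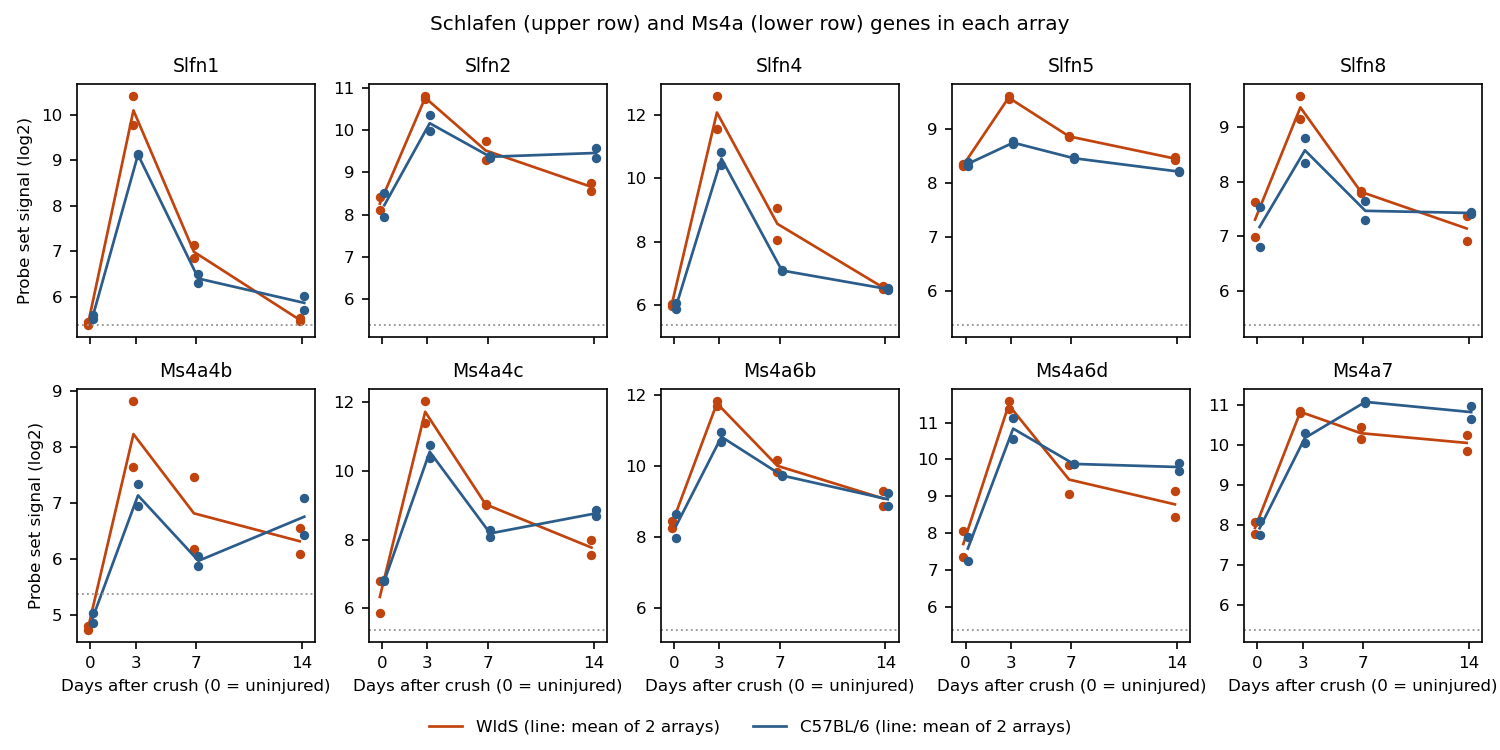
Log2 probe set signal (vertical axis) of the 5 Schlafen genes (upper row) and 5 Ms4a genes (lower row) against days after crush, with WldS in orange and C57BL/6 in blue, drawn slightly apart. Points are single arrays, lines join the means of 2 arrays and the dotted line is the dim filter of 5.37. Every panel peaks at day 3 except Ms4a7 in C57BL/6, which peaks at day 7.

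The first question was how these genes behaved after injury in each strain. All 10 were called higher at day 3 than at day 0 in WldS and in C57BL/6 nerves. Of all tested genes, 20.8% were called higher in WldS and 22.6% in C57BL/6. The WldS day 0 and day 3 arrays had served to choose the members, so the WldS counts here are descriptions. The C57BL/6 counts are of genes chosen by that WldS rise. Most fell by day 7. At day 14 none of the 5 Schlafen genes was called above day 0 in WldS, and only Slfn2 was in C57BL/6, while all 5 Ms4a genes were still called higher in both strains, against 12.7% of all tested genes in WldS and 17.1% in C57BL/6.

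Slfn4, a myeloid Schlafen gene induced by type I interferon, moved most. In WldS nerves it read 6.03 and 5.97 (log2 signal of each array) at day 0, 12.60 and 11.55 at day 3, 8.06 and 9.07 at day 7, and 6.50 and 6.62 at day 14. The C57BL/6 arrays read 5.87 and 6.08, then 10.42 and 10.83, 7.09 and 7.10, and 6.49 and 6.53 on the same days. Both strains thus ran low, high, middle and low again, and the WldS arrays were above the C57BL/6 arrays at day 3 and day 7. The day 3 minus day 0 difference was 6.08 ± 0.30 in WldS (SE, log2) and 4.65 ± 0.30 in C57BL/6, or 67.7-fold and 25.1-fold. The WldS value was the greatest of all 14545 genes, which is how the gene was chosen, and the C57BL/6 value ranked 9 (limma adjusted p = 2.98e-08).

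Slfn1, the founding member of the family, restrains the growth of mouse T cells. In WldS nerves its signal was 5.44 and 5.37 at day 0, 10.42 and 9.78 at day 3, 7.13 and 6.85 at day 7, and 5.46 and 5.52 at day 14. Its C57BL/6 signals were 5.51 and 5.60, 9.12 and 9.13, 6.50 and 6.30, and 5.71 and 6.02 on those days. Slfn1 was near the dim filter before injury and was back near it at day 14 in both strains. The C57BL/6 day 3 minus day 0 difference was 3.57 ± 0.18, an 11.9-fold rise (adjusted p = 1.93e-09), beside 4.70 ± 0.18 in WldS, or 25.9-fold.

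Slfn2 keeps mouse T cells and monocytes quiescent, and it was well above the filter before injury. It read 8.42 and 8.10, 10.82 and 10.73, 9.75 and 9.30, and 8.57 and 8.75 in WldS nerves at day 0, 3, 7 and 14. The C57BL/6 nerves gave 7.93 and 8.52, 9.99 and 10.35, 9.40 and 9.35, and 9.34 and 9.59. The C57BL/6 arrays at day 7 and day 14 lay in one narrow band above day 0, whereas the WldS arrays at day 14 lay just above theirs. Its day 14 minus day 0 difference was 0.40 ± 0.20 in WldS (adjusted p = 0.185) and 1.24 ± 0.20 in C57BL/6 (adjusted p = 0.000307).

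The long forms Slfn5 and Slfn8, both interferon-inducible, rose less. Slfn5 read 8.36 and 8.31, 9.62 and 9.55, 8.86 and 8.87, and 8.49 and 8.42 in WldS nerves at day 0, 3, 7 and 14. On the C57BL/6 side it read 8.32 and 8.40, 8.73 and 8.78, 8.44 and 8.48, and 8.20 and 8.23. The replicates of Slfn5 differed little, and its day 3 rise was 1.25 ± 0.10 in WldS and 0.39 ± 0.10 in C57BL/6 (adjusted p = 0.00414 in C57BL/6). Slfn8 reached 9.57 and 9.15 in WldS nerves at day 3, against 7.63 and 6.98 at day 0. In C57BL/6 nerves it reached 8.80 and 8.34 at day 3, against 6.80 and 7.54 at day 0, and the differences were 2.05 ± 0.26 in WldS and 1.40 ± 0.26 in C57BL/6 (adjusted p = 0.000622 in C57BL/6). At day 7 and day 14 Slfn8 read 7.83 and 7.79, then 6.91 and 7.37 in WldS, and 7.63 and 7.29, then 7.40 and 7.45 in C57BL/6.

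Among the Ms4a genes, Ms4a4c had the greatest rise. Its WldS arrays read 6.81 and 5.86, 12.03 and 11.40, 9.04 and 9.01, and 7.56 and 7.98 at day 0, 3, 7 and 14. Its C57BL/6 arrays read 6.82 and 6.79, 10.75 and 10.36, 8.29 and 8.08, and 8.68 and 8.85. WldS arrays were the higher ones at day 3 and day 7 and the lower ones at day 14. The day 3 minus day 0 difference was 5.38 ± 0.26 in WldS, the second greatest of all genes by the way it was chosen, and 3.75 ± 0.26 in C57BL/6, or 41.6-fold and 13.5-fold (adjusted p = 6.09e-08 in C57BL/6). The Ms4a4c probe set has the suffix for probes that may hybridise to related transcripts, and its neighbour Ms4a4b is a close relative.

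Ms4a4b, known from mouse T cells, was below the dim filter at day 0 in both strains, so that its rises are lower bounds. It read 4.72 and 4.80, 8.82 and 7.63, 6.17 and 7.45, and 6.07 and 6.55 in WldS nerves at day 0, 3, 7 and 14. In C57BL/6 nerves it read 4.84 and 5.03, 7.33 and 6.93, 6.05 and 5.87, and 6.42 and 7.08. Its WldS replicates were far apart at day 3 and day 7. Counted from the filter, the rise at day 3 was at least 2.85 in WldS and at least 1.76 in C57BL/6 (log2).

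Ms4a6b, which binds the T cell costimulatory receptor GITR in mice, read 8.43 and 8.25, 11.83 and 11.69, 9.83 and 10.18, and 8.88 and 9.28 in WldS nerves at day 0, 3, 7 and 14. In C57BL/6 nerves it read 7.98 and 8.64, 10.96 and 10.68, 9.75 and 9.71, and 8.88 and 9.24. The strain differences were 0.27 at day 7, where the arrays did not overlap, and 0.02 at day 14, where they did. Ms4a6d, found on mouse macrophages, read 8.05 and 7.36, 11.59 and 11.37, 9.07 and 9.84, and 8.43 and 9.13 in WldS nerves. In C57BL/6 nerves it read 7.26 and 7.91, 11.11 and 10.56, 9.88 and 9.88, and 9.69 and 9.90. At day 14 the Ms4a6d arrays were lower in WldS than in C57BL/6, without overlap.

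Ms4a7, a marker of macrophages of monocyte origin in mice, had another course. In WldS nerves it read 8.07 and 7.78, 10.85 and 10.80, 10.14 and 10.45, and 9.85 and 10.25 at day 0, 3, 7 and 14. In C57BL/6 nerves it read 7.74 and 8.09, 10.31 and 10.04, 11.05 and 11.10, and 10.66 and 10.98. It was the only member whose highest mean in C57BL/6 came at day 7, and it stayed well above day 0 in every injured array. Its C57BL/6 difference from day 0 was 2.26 ± 0.18 at day 3, 3.16 ± 0.18 at day 7 and 2.90 ± 0.18 at day 14 (adjusted p = 1.78e-07, 1.00e-08 and 5.53e-08).

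**Figure D2:**
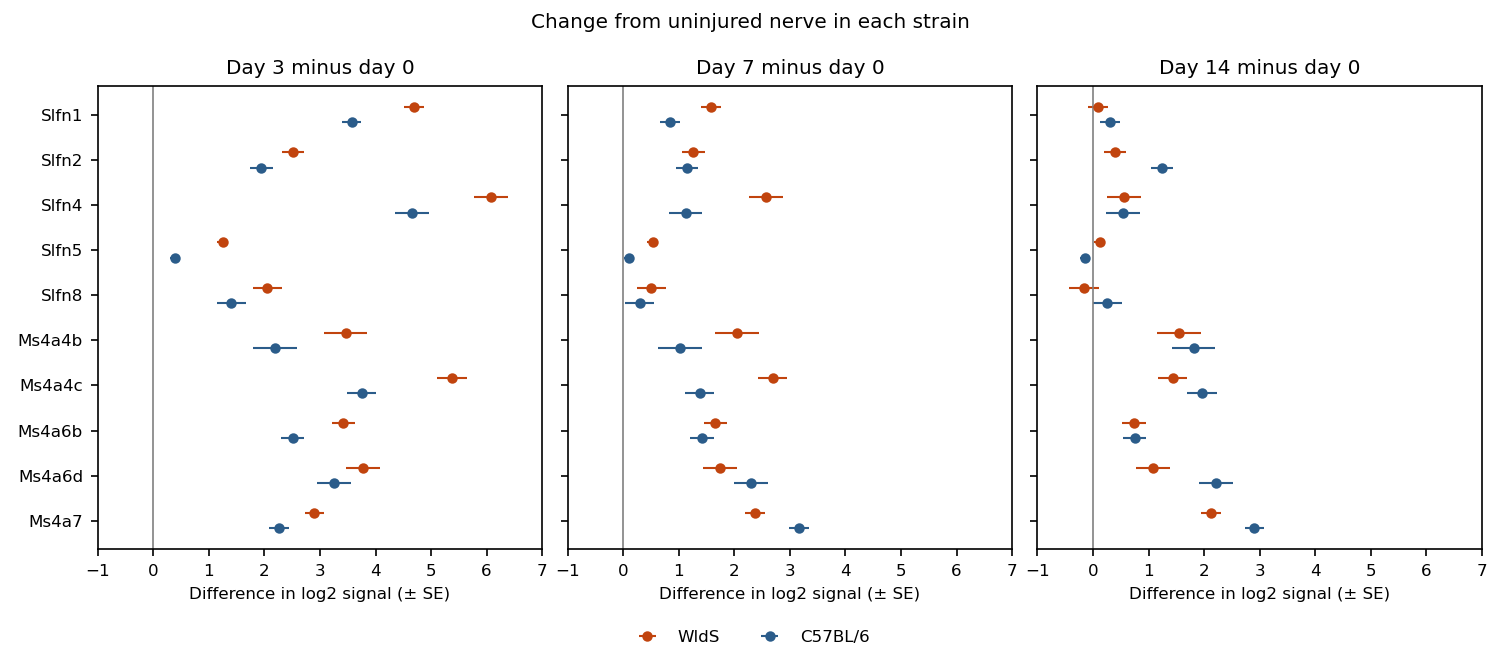
Difference from day 0 in log2 signal (horizontal axis, with SE from the fit as bars) for each gene at day 3, 7 and 14, with WldS in orange above C57BL/6 in blue. At day 3 all points lie right of 0, from 1.25 to 6.08 in WldS and from 0.39 to 4.65 in C57BL/6. At day 14 the Schlafen points run from -0.16 to 0.56 in WldS and from -0.14 to 1.24 in C57BL/6, where Slfn2 is the highest.

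By count, 10 of 10 members were called higher at day 3 than at day 0 in WldS, where 20.8% of all tested genes were called higher, a comparison that had served to pick members and is given as a description only. In C57BL/6 the count was also 10 of 10, against 22.6% of all tested genes (limma, adjusted p from 1.93e-09 to 0.00414). The median difference was 2.38, beside 0.02 over all genes. Nerves of both strains were crushed, and the members were chosen by their WldS rise, which favours a rise in C57BL/6 too. Among other tested relatives, 1 of 2 Schlafen and 2 of 9 Ms4a family genes were called higher in C57BL/6 at day 3. At day 7, 9 of 10 were called higher than day 0 in WldS, against 21.9% of all genes, and 7 of 10 in C57BL/6, against 19.6%. Slfn8 missed in WldS at 0.51 ± 0.26 (adjusted p = 0.152), and Slfn5, Slfn8 and Ms4a4b missed in C57BL/6 at 0.11, 0.30 and 1.02 (adjusted p = 0.436, 0.429 and 0.0546). The comparisons of 1 strain with its day 0 share the same 2 uninjured arrays. In WldS these arrays also served to choose the members, which favours a rise. The day 7 and day 14 counts and p-values in WldS are therefore no independent evidence.

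At day 14 the members called higher were the 5 Ms4a genes in WldS, against 12.7% of all genes, and the 5 Ms4a genes with Slfn2 in C57BL/6, against 17.1%. The Ms4a differences in WldS were 1.55 (Ms4a4b), 1.43 (Ms4a4c), 0.74 (Ms4a6b), 1.08 (Ms4a6d) and 2.13 (Ms4a7), with adjusted p from 1.58e-06 to 0.0231. In C57BL/6 they were 1.81, 1.96, 0.75, 2.21 and 2.90, in the same gene order, with adjusted p from 5.53e-08 to 0.0129. Counted from the dim filter, the Ms4a4b values are at least 0.94 in WldS and at least 1.38 in C57BL/6. The Schlafen median at day 14 was 0.12 in WldS and 0.31 in C57BL/6. Without WldS day 14 replicate 2, an array with a high 3'/5' index, 2 members were called in WldS (Ms4a4c and Ms4a7), and without WldS day 0 replicate 2, 3 were. The difference between the families was not tested.

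The fall after day 3 was measured next. From day 3 to day 7 every member fell in WldS, and 9 of 10 were called lower, against 3.58% of all genes. This count reuses the WldS day 3 arrays whose high values chose the members, which favours a fall, so it is given as a description. The called falls ran from -0.72 for Slfn5 to -3.51 for Slfn4, and Ms4a7 missed at -0.53 ± 0.18 (adjusted p = 0.0972). In C57BL/6, 9 of 10 fell over the same interval, against 10.7% of all genes, from -0.29 for Slfn5 to -3.53 for Slfn4. Ms4a7 alone went the other way and rose by 0.90 ± 0.18 (adjusted p = 0.00301), 1 member against 9.60% of all genes called higher. The total of 10 calls in C57BL/6 became 6 without C57BL/6 day 3 replicate 1 or day 7 replicate 1 and 5 without day 7 replicate 2, and Slfn5, Ms4a4b and Ms4a6d had adjusted p of 0.0477, 0.0479 and 0.0420.

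From day 7 to day 14 every member fell further in WldS, and 6 of 10 were called lower, against 3.62% of all genes. These were Slfn1 (-1.50 ± 0.18), Slfn2 (-0.86 ± 0.20), Slfn4 (-2.01 ± 0.30), Slfn5 (-0.41 ± 0.10), Ms4a4c (-1.25 ± 0.26) and Ms4a6b (-0.92 ± 0.21), with adjusted p from 0.000244 to 0.0229. In C57BL/6 limma called 0 of 10, against 5.27% of all genes called in either direction, with 4 members at an unadjusted p below 0.05. The WldS count was 3 without WldS day 14 replicate 1 or either WldS day 7 array, and the C57BL/6 count was 1 without either C57BL/6 day 0 array or either WldS day 3 array. Whether the strains differed in this interval was not tested.

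The second question was how the strains differed. Uninjured nerves gave 0 calls of 10 in limma, against 0.227% of all genes, and 0 members at an unadjusted p below 0.05. The member differences, WldS minus C57BL/6, ran from -0.47 for Ms4a4c to 0.13 for Slfn8. Slfn1 and Ms4a4b, whose day 0 arrays did not overlap between the strains, differed by -0.15 ± 0.18 and -0.18 ± 0.39.

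At day 3 every member was higher in WldS. The median difference was 0.89, beside 0.0015 over all genes. Of the 10, 6 passed the test, against 4.82% of all genes called higher. They were Slfn1 (0.97 ± 0.18, 1.96-fold, adjusted p = 0.00237), Slfn4 (1.45 ± 0.30, 2.74-fold, adjusted p = 0.00666) and Slfn5 (0.83 ± 0.10, 1.78-fold, adjusted p = 4.67e-05) of the Schlafen genes. Of the Ms4a genes they were Ms4a4c (1.16 ± 0.26, 2.23-fold, adjusted p = 0.0115), Ms4a6b (0.94 ± 0.21, 1.92-fold, adjusted p = 0.00987) and Ms4a7 (0.65 ± 0.18, 1.57-fold, adjusted p = 0.0319). The others had differences of 0.61 (Slfn2), 0.79 (Slfn8), 1.10 (Ms4a4b) and 0.64 (Ms4a6d), with adjusted p from 0.0825 to 0.265.

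This comparison uses the WldS day 3 arrays whose high values chose the members, which favours a positive difference, so its counts and p-values are no independent evidence. In all 10 members WldS day 3 replicate 1 was above replicate 2. Without replicate 1 the count was 2, and without C57BL/6 day 3 replicate 2 it was 3. Slfn1 and Slfn5 kept their calls when any one array was left out, whereas Ms4a7 lost its call without any one of the 4 day 3 arrays. Of the genes with a further probe set above the filter, Slfn5 gave 0.64 and 0.70 with its other sets, Ms4a4c 1.14, Ms4a6b 0.97, Ms4a6d 0.83 and Ms4a7 0.32. The other sets of Slfn1 and Ms4a4b and the dimmest set of Ms4a6d had means of 4.02, 4.38 and 3.58, below the filter.

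**Figure D3:**
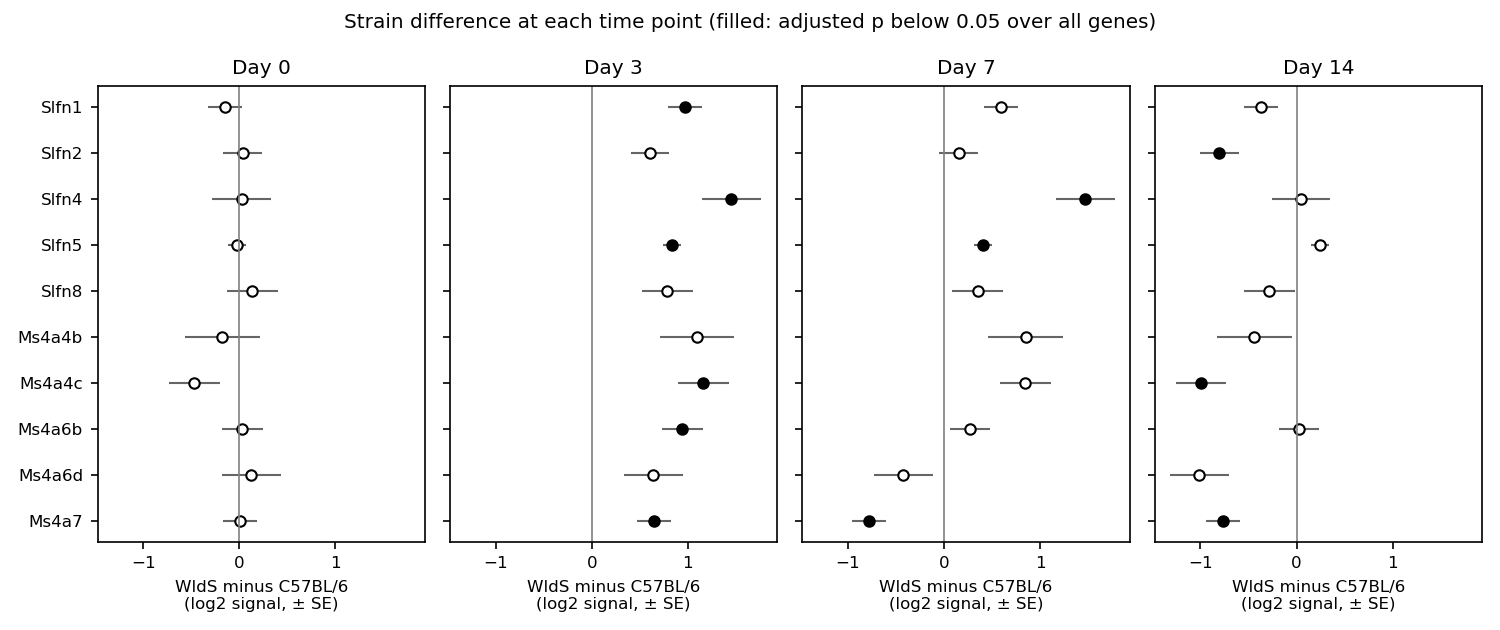
WldS minus C57BL/6 difference in log2 signal (horizontal axis, with SE from the fit as bars) for each gene at day 0, 3, 7 and 14. Filled points have an adjusted p below 0.05 over all tested genes; none is filled at day 0, 6 at day 3, 3 at day 7 and 3 at day 14, and the points move from right of 0 at day 3 to mostly left of 0 at day 14.

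The interaction asks whether the change from day 0 was larger in WldS than in C57BL/6. At day 3 it was positive for 10 of 10 members and passed for 3, where 4.02% of all genes were called higher. Its first term is the WldS day 3 minus day 0 difference by which the members were chosen, which favours a positive value, so the counts and p-values are no independent evidence. Ms4a4c rose 1.63 ± 0.37 more in WldS (5.38 in WldS, against 3.75 in C57BL/6, adjusted p = 0.0187). Slfn1 rose 1.12 ± 0.25 more (4.70 in WldS, against 3.57 in C57BL/6, adjusted p = 0.0155), and Slfn5 rose 0.86 ± 0.13 more (1.25 in WldS, against 0.39 in C57BL/6, adjusted p = 0.00141). Slfn4 had a difference of similar size, 1.43 ± 0.43, that missed (adjusted p = 0.0702). The count was 1, Slfn5, without WldS day 3 replicate 1 or without C57BL/6 day 0 replicate 2. Slfn1 also missed without C57BL/6 day 3 replicate 1, and Ms4a4c without C57BL/6 day 0 replicate 1 or day 3 replicate 2. With the mean of both its probe sets Ms4a4c had 1.29 (adjusted p = 0.140).

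At day 7 the calls went both ways. Slfn4 was higher in WldS by 1.47 ± 0.30 (2.77-fold, adjusted p = 0.00797) and Slfn5 by 0.40 ± 0.10 (adjusted p = 0.0183), 2 members against 3.86% of all genes called higher. Ms4a7 was lower in WldS by -0.78 ± 0.18 (adjusted p = 0.0139), 1 member against 2.97% called lower. The other 7 members were not called. All 3 calls were lost without either C57BL/6 day 7 array, and 1 was left without WldS day 7 replicate 2. The Slfn5 difference was 0.08 with the mean of its probe sets (adjusted p = 0.838), since its other sets gave -0.09 and -0.08. The interaction at day 7 was called for 0 of 10, against 4.11% of all genes in either direction, with 5 members at an unadjusted p below 0.05. It was 1.45 ± 0.43 for Slfn4 (adjusted p = 0.0809) and -0.79 ± 0.25 for Ms4a7 (adjusted p = 0.102). This interaction, like that at day 14, uses the WldS day 0 arrays that served to choose the members, which favours a positive value.

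At day 14 the called differences were all on the other side. Slfn2 was lower in WldS by -0.81 ± 0.20 (adjusted p = 0.0293), Ms4a4c by -0.99 ± 0.26 (adjusted p = 0.0392) and Ms4a7 by -0.77 ± 0.18 (adjusted p = 0.0192), 3 of 10 against 3.55% of all genes called lower. Ms4a6d had -1.01 ± 0.31 and missed (adjusted p = 0.0693). Slfn4 and Ms4a6b had differences of 0.05 ± 0.30 and 0.02 ± 0.21. In total, 7 of 10 members were not called on that day. Of the day 14 arrays, leaving out replicate 2 of C57BL/6 or replicate 1 of WldS gave 0 calls, and leaving out replicate 1 of C57BL/6 or replicate 2 of WldS gave 1, as did quantile normalization. The interaction at day 14 was called for 0 of 10 in limma, against 1.58% of all genes, with 3 members at an unadjusted p below 0.05.

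The third question was what moved alongside these genes. Across the 16 arrays the genes outside both families most like the mean of the Schlafen members were Oas1a (Pearson r = 0.988), Dhx58 (0.988), Ifi209 (0.988), Ifi213 (0.981) and Samhd1 (0.978), of which Oas1a and Dhx58 are interferon-induced sensors of viral RNA. Those most like the mean of the Ms4a members were Marchf1 (0.982), Atp8b4 (0.980), Tlr1 (0.979), Arhgap30 (0.976) and Sirpb1a (0.976). These correlations are descriptions over arrays that share time points. For single members the closest gene was Dhx58 for Slfn1 (0.988), Epsti1 for Slfn2 (0.975), the formyl peptide receptor gene Fpr2 for Slfn4 (0.987), the peptide transporter gene Tap1 for Slfn5 (0.961) and Ifi209 for Slfn8 (0.969). For the Ms4a members it was Ccl5 for Ms4a4b (0.966), Selplg for Ms4a4c (0.981), Alox5ap for Ms4a6b (0.983), Arhgap30 for Ms4a6d (0.987) and the macrophage gene Mpeg1 for Ms4a7 (0.983).

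Members also differed in how alike they were. Slfn1 and Slfn4 had the highest correlation of any pair (0.985), and Slfn5 and Ms4a7 the lowest (0.387). Ms4a4c was closer to Slfn2 (0.963) than to Ms4a7 (0.695). Ms4a7 was closest to Ms4a6d (0.830) among the members.

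A list of 23 measured interferon-response genes was set beside the members. At day 3 its mean log2 signal was 10.08 and 9.73 in WldS, against 9.05 and 8.99 in C57BL/6, and at day 7 it was 8.57 and 8.62 in WldS, against 8.01 and 7.91 in C57BL/6. At day 3, 21 of 23 were called higher than day 0 in WldS (median 1.94), against 20.8% of all tested genes. In C57BL/6, 16 of 23 were (median 0.81), against 22.6%. WldS was higher than C57BL/6 at day 3 for 16 of 23, against 4.82% of all tested genes, with a median difference of 0.82. The largest of these were Mx1, an antiviral GTPase (1.65 ± 0.15, adjusted p = 4.79e-06), Ifit3 (1.27 ± 0.26), Ifit1 (1.25 ± 0.27) and Irf7, the regulator of type I interferon genes (1.19 ± 0.19). The interaction at day 3 passed for 9 of 23, all higher, where 4.02% of all tested genes were called higher. Ifit2 had 1.61 ± 0.21 (limma adjusted p = 0.000309). The list was chosen with earlier results of these data known, so its counts and p-values are no independent evidence. At day 14 limma called 3 of 23 lower than day 0 in WldS and 8 in C57BL/6. In any direction, 6 and 9 had an unadjusted p below 0.05. It called 0 higher in either strain, against 12.7% of all tested genes in WldS and 17.1% in C57BL/6. The list medians were -0.20 in WldS and -0.21 in C57BL/6, beside 0.0076 and -0.0047 over all tested genes.

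Of 16 genes for interferons, their receptors and signalling, limma called 0 between the strains at day 3 (1 at an unadjusted p below 0.05), with a median difference of 0.03. Irf8, a factor of monocytes and dendritic cells, rose by 2.94 ± 0.20 in WldS at day 3 and by 2.49 ± 0.20 in C57BL/6. At day 14 Irf8 was lower in WldS by -1.23 ± 0.20 (adjusted p = 0.00195).

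**Figure D4:**
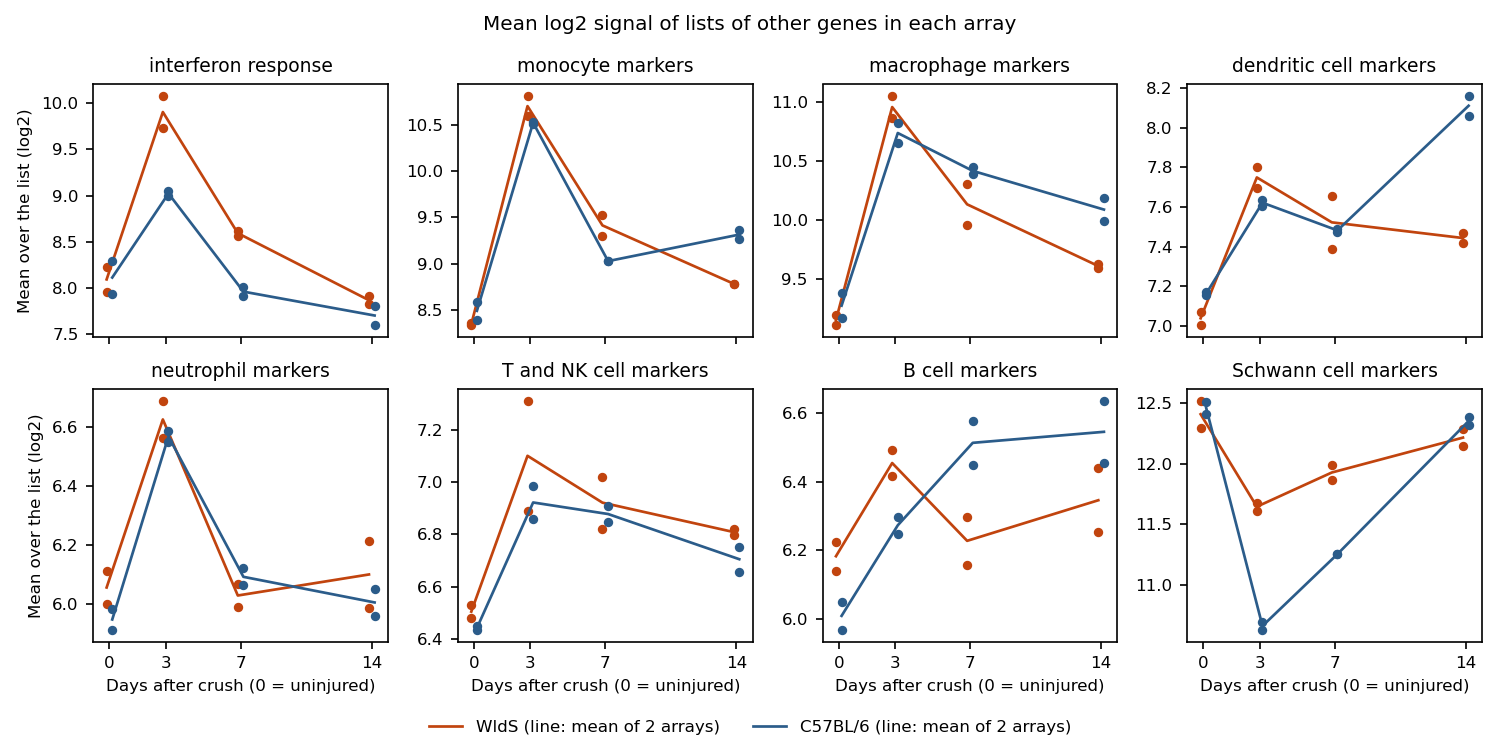
Mean log2 signal over the tested genes of 8 lists (vertical axis) against days after crush, with WldS in orange and C57BL/6 in blue. Points are single arrays and lines join the means of 2 arrays; at day 3 the WldS arrays of the interferon list (10.08 and 9.73) lie well above the C57BL/6 arrays (9.05 and 8.99), while the monocyte and macrophage lists lie close together.

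Monocyte and macrophage markers rose in both strains at day 3. Of 9 monocyte markers, 9 were called higher than day 0 in each strain, and of 16 macrophage markers, 15 were. The monocyte list averaged 10.81 and 10.59 in WldS on that day, against 10.51 and 10.53 in C57BL/6. The macrophage list averaged 11.05 and 10.86 in WldS, against 10.82 and 10.65 in C57BL/6. Between strains at day 3, limma called 0 of 9 and 0 of 16 (0 and 4 at an unadjusted p below 0.05). The median differences were 0.15 and 0.20, beside the members' 0.89. The members were chosen by high values in these WldS day 3 arrays, which favours a higher median for them. Ccr2, the chemokine receptor of blood monocytes, read 11.10 and 10.98 in WldS day 3 nerves, against 10.59 and 11.23 in C57BL/6 day 3 nerves, and the arrays overlapped. The part of monocyte and macrophage number in the members' levels was not tested.

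At later days the marker lists differed between strains. At day 7, 4 of 9 monocyte markers were higher in WldS, Ccr2 by 0.76 ± 0.18 (adjusted p = 0.0206) among them. Of 16 macrophage markers at day 7, 3 were lower in WldS and 1 was higher, with a median of -0.36. Those lower were Cd68 (-1.15 ± 0.24), Trem2 (-1.10 ± 0.17) and Mertk (-0.60 ± 0.11), and Cd163 was higher (0.86 ± 0.19). At day 14, 8 of 16 macrophage markers were lower in WldS and 1 was higher, with a median of -0.59. Those lower included Cd68, a lysosomal protein (-1.37 ± 0.24, adjusted p = 0.00392), Lyz2 (-1.22 ± 0.20) and Trem2 (-1.20 ± 0.17), and Cd163, of resident macrophages, was higher (1.31 ± 0.19). Ms4a7, Ms4a4c and Slfn2 were lower in WldS on the same day. Of 9 monocyte markers at day 14, Chil3 was lower in WldS (-5.83 ± 0.20) and S100a4 was higher (1.03 ± 0.19), with a list median of 0.27. Of 6 tested dendritic cell markers at day 14, 2 were lower in WldS, Itgax by -2.67 ± 0.19 among them, against 3.55% of all tested genes. The other 4 were not called, and the list median was -0.32.

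Other cell types were checked in the same way. Of 6 tested dendritic cell markers, 4 were called higher at day 3 than at day 0 in WldS and 3 in C57BL/6. Of 7 B cell markers, 3 were in WldS and 2 in C57BL/6. Of 11 neutrophil markers, 3 were called higher at day 3 in WldS, where 20.8% of all tested genes were, and 4 in C57BL/6, where 22.6% were. From day 0 to day 3 the neutrophil list mean went from 6.06 to 6.63 in WldS and from 5.95 to 6.57 in C57BL/6. The median difference over its genes was -0.03 in WldS and 0.16 in C57BL/6. S100a8 read 7.04 and 8.06 in WldS day 3 nerves, against 6.93 and 7.53 in C57BL/6 day 3 nerves, while Elane and Mpo read at most 6.31 and 5.81 in any array. Of 11 tested T and NK cell markers, 4 were called higher in WldS and 3 in C57BL/6 at day 3, beside the same shares of all genes, and Gzma was higher in WldS than in C57BL/6 (1.10 ± 0.25, adjusted p = 0.0117). The T cell gene Cd3e lay between 7.43 and 7.71 in all 16 arrays, whereas the mean of the T and NK list rose. In WldS the list averaged 6.53 and 6.48 at day 0 and 7.31 and 6.89 at day 3. In C57BL/6 it averaged 6.45 and 6.43 at day 0 and 6.98 and 6.86 at day 3. The T cell part in Ms4a4b and Ms4a6b was not tested. In WldS day 3 nerves the T and NK list was higher in replicate 1 than in replicate 2, the array order also seen in the members. The interferon, monocyte, macrophage, dendritic cell and mast cell lists had that order too. The neutrophil, B cell and Schwann cell lists had the other order. Of 8 mast cell markers, a list that includes Ms4a2, 5 were called higher in WldS than in C57BL/6 at day 3, against 4.82% of all genes. From day 0 to day 3, 0 of the 8 were called higher and 1 lower in WldS (median 0.14). In C57BL/6, 0 were called higher and 5 lower (median -0.64). The medians over all tested genes were -0.02 in WldS and 0.02 in C57BL/6.

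Schwann cell markers fell at day 3, 5 of 6 in WldS (median -0.77) and 6 of 6 in C57BL/6 (median -1.84). The medians over all tested genes were -0.02 in WldS and 0.02 in C57BL/6. At day 3, 5 of 6 were higher in WldS than in C57BL/6 (median 1.11), against 4.82% of all tested genes. The part of Schwann cell RNA in the strain differences was not tested.

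**Figure D5:**
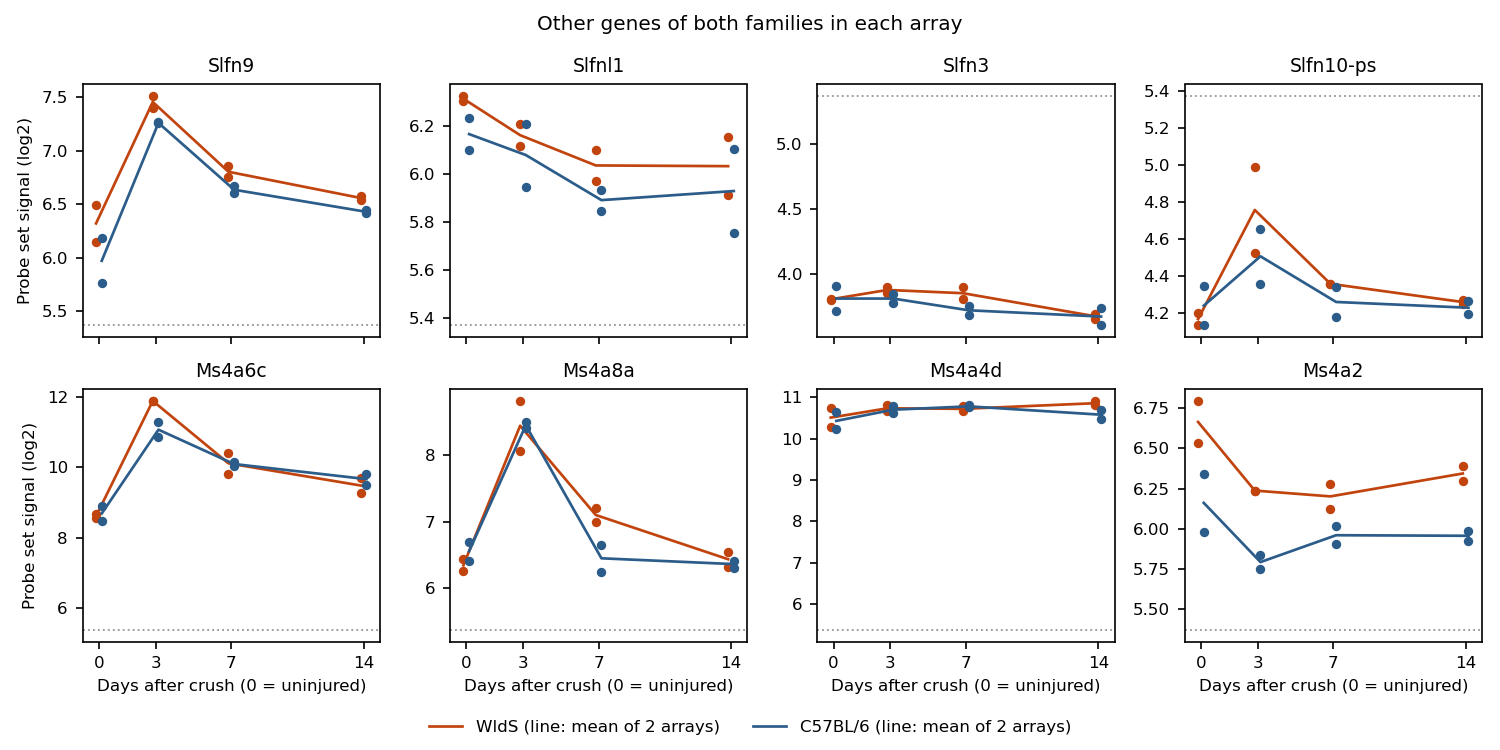
Log2 probe set signal (vertical axis) of 4 other Schlafen-related genes (upper row) and 4 other Ms4a genes (lower row) against days after crush, with WldS in orange and C57BL/6 in blue. Points are single arrays, lines join means and the dotted line is the dim filter; Slfn9, Ms4a6c and Ms4a8a peak at day 3, and the other panels change by less than 1 on the log2 scale.

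The rest of both families served as a comparison. Slfn9, the neighbour of Slfn8, read 7.51 and 7.40 in WldS day 3 nerves, against 6.50 and 6.15 in WldS day 0 nerves, and 7.26 and 7.27 in C57BL/6 day 3 nerves, against 5.76 and 6.18 at day 0. It rose by 1.13 ± 0.14 in WldS and 1.29 ± 0.14 in C57BL/6 (adjusted p = 2.75e-05 and 4.97e-06). Ms4a6c, which lies between Ms4a4b and Ms4a6b, read 11.89 and 11.89 in WldS day 3 nerves, against 11.28 and 10.86 in C57BL/6 day 3 nerves, a difference of 0.82 ± 0.21 (adjusted p = 0.0262). It rose by 3.27 ± 0.21 in WldS and 2.38 ± 0.21 in C57BL/6 at day 3 and was still higher at day 14, by 0.87 and 0.98. Ms4a8a rose at day 3 by 2.09 ± 0.21 in WldS and 1.89 ± 0.21 in C57BL/6.

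Other relatives showed no such rise. Ms4a4d was bright in every array, between 10.23 and 10.92, and was not called in any comparison. Slfn3, the neighbour of Slfn4, stayed between 3.61 and 3.91, below the dim filter, as did Slfn10-ps (4.13 to 4.99). Slfnl1, on chromosome 4, was not called. Ms4a2, the beta chain of the mast cell IgE receptor, fell at day 3 by -0.43 ± 0.13 in WldS and -0.37 ± 0.13 in C57BL/6 (adjusted p = 0.0223 and 0.0393). Ms4a1, which encodes CD20, lay between 5.22 and 6.06 and was not called. Tmem176a, a distant relative of the Ms4a family, fell in C57BL/6 by -0.71 ± 0.17, -0.79 ± 0.17 and -0.87 ± 0.17 at day 3, 7 and 14 (adjusted p from 0.00142 to 0.0043). Tmem176b fell in C57BL/6 by -0.44 ± 0.13 at day 7 and -0.53 ± 0.13 at day 14. Neither was called in WldS, and the strain difference in these changes was not called. Ms4a3 rose in C57BL/6 at day 7 by 0.35 ± 0.13 (adjusted p = 0.0457), and Ms4a15 was not called. Ms4a10, Ms4a13, Ms4a18, Ms4a19, Ms4a20 and Slfn5os had means below the dim filter. Among the other tested genes with a Slfn or Ms4a symbol, Slfn9, Ms4a6c and Ms4a8a were the only ones called higher than day 0 at day 3, in each strain.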

How the data were processed

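Total RNA from pooled sciatic nerve segments (10 µg per array) was measured on an Affymetrix mouse whole-genome array. The deposited values are log2 signals per probe set. The submitters' processing notes list GCOS 1.4, RMA, limma and Partek but not what each did. Of 45101 probe sets, 64 were controls, 34945 had 1 gene symbol in the platform annotation, 932 had several and 9160 had none. Each gene kept the 1-symbol probe set with the highest mean over 16 arrays, and genes above the 30th percentile of mean signal (log2 5.37) were tested. The fit used limma 3.58.1 in R 4.3.3 on all 8 groups (8 residual and 5.82 prior degrees of freedom), with Benjamini-Hochberg adjustment over 14545 genes and calls at an adjusted p below 0.05. Tables and plots were made with Python 3.11.15, pandas 2.3.3, numpy 2.4.6 and matplotlib 3.10.9, and the fit was tested on simulated data.

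The members and lists were chosen with earlier results of these data known, so the WldS day 3 minus day 0 comparison carries no test here. The strain difference and interaction at day 3 and the WldS change from day 3 to day 7 share its WldS day 3 arrays. Its WldS day 0 arrays also enter the strain difference at day 0. They enter the WldS changes from day 0 and the interactions at day 7 and day 14 as well. The text names all members, up to 4 called genes of each list with the greatest absolute difference in a comparison, all measured relatives in both families, and the genes with the highest Pearson r to each family mean (5 each) and to each member (1 each). Ccr2 at day 3, S100a8, Cd3e, Elane and Mpo were named after their values were seen. Alternatives were another filter, normalization, probe set rule, variance prior, index covariate, replicate block and the omission of arrays. Promoter sequences came from RefSeq (GRCm38.p6).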

Additional observations from a re-analysis of the deposited data

Results flagged for a closer look

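For 3 genes the change from day 0 to day 3 differed between the strains by a test of the difference itself, the limma interaction over all tested genes. The WldS change exceeded the C57BL/6 change by 1.12 for Slfn1, 0.86 for Slfn5 and 1.63 for Ms4a4c (log2), with adjusted p of 0.0155, 0.00141 and 0.0187. This interaction contains the WldS day 3 minus day 0 difference by which the genes were chosen, so these p-values are no independent evidence. Groups of 2 arrays are too small to look for single outlying arrays. The Slfn5 value kept its call when any one array was left out.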

How the results depend on the processing

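No difference of a member changed sign under any alternative that was run in a comparison where it was called. Leaving out each array in turn gave these lowest and highest numbers of members called: from day 0 in WldS, 10 to 10 at day 3, 9 to 10 at day 7 and 2 to 5 at day 14; from day 0 in C57BL/6, 10 to 10, 6 to 8 and 5 to 6. From day 3 to day 7 the counts were 7 to 9 in WldS and 5 to 10 in C57BL/6, and from day 7 to day 14 they were 3 to 6 and 0 to 1. Between strains they were 0 to 0 at day 0, 2 to 7 at day 3, 0 to 4 at day 7 and 0 to 4 at day 14. For the interaction they were 1 to 4 at day 3, 0 to 1 at day 7 and 0 to 0 at day 14.

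Without both arrays of high 3'/5' index, 2 members were called at day 14 in WldS and 1 in the day 7 interaction. With the index as a covariate the counts were 5 for the day 3 interaction, 1 for the day 7 interaction and 1 from day 7 to day 14 in C57BL/6. The mean of all probe sets gave 1 for the day 7 and 1 for the day 14 interaction, and quantile normalization gave 1 between strains at day 14. The causes were not tested. With the replicate block the counts were 8 from day 3 to day 7 in WldS and 7 in C57BL/6, and no other member count changed. Deviations of same-numbered arrays correlated between -0.58 and 0.19 over 28 pairs of groups, so the numbers do not pair the arrays. The stricter filter (log2 6.46) removed Ms4a4b. With 2 arrays a group, low signals such as Ms4a4b at day 0 are bounds.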
